A study of Mus musculus with 6 samples.

Results

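The 10 genes described here are *Mid1*, *Amy2a3*, *Htatip2*, *Ftl1*, *Ftl2-ps*, *BC147527*, *Gm14165*, *Gm13841*, *Gm8210* and *Tma7-ps*. They were chosen by their counts in mutant against *wt* libraries, out of 46963 gene names, because both enhancer mutants differed from *wt* in the same direction at rest and after stimulation, and because they are not immunoglobulin genes. Their values in that comparison are therefore a description with no test. All 10 passed a filter of at least 10 counts in at least 2 libraries, as did 14600 genes in all.

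RNA of CD43- splenic B-cells was sequenced in 6 libraries, 1 for each genotype and culture state. The mice were *wt* or lacked either Eμ or the 3′RR on the heavy chain allele. Eμ was removed together with its matrix attachment regions. Eμ and the 3′RR are the enhancers that lie upstream and downstream of the immunoglobulin heavy chain constant genes. The study asked whether they work independently or depend on each other, from histone marks, class switching and transcription of that locus. Resting cells received no stimulus, and stimulated cells received lipopolysaccharide (LPS), a bacterial cell wall component that activates B-cells. The labels give 5 μg per ml LPS in one field and milligrams in another, and a culture of 2 days without stimulus is stated for resting cells in the labels only. The methods place the *wt* animals, bought from a breeder, and both mutant lines on a 129 background, whereas the reads were mapped to mm10, the genome of C57BL/6J. Each library pooled 2 mice according to the labels, whereas the methods, which name both sexes, describe more mice and a pair of RNA pools per genotype, so the number of mice behind a library is uncertain. With 1 library per genotype and state, genotype cannot be told apart from colony, pool or library, and no difference from *wt* has a replicate check.

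A processed pseudogene is a copy of a spliced messenger RNA that was inserted back into the genome, without introns and usually without a promoter of its own. Ribosomal protein and ferritin genes have left many such copies, and inbred mouse strains differ in which copies they carry and in their bases. Short reads from a parent gene can align to a near-identical copy, so that the counts of parent and copy depend on a few bases. Genetic differences between inbred strains or colonies that have nothing to do with a targeted allele are called passenger differences when they travel with it.

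Of the 10 genes, 5 were annotated as processed pseudogenes and 5 as protein-coding genes, on 8 chromosomes of GRCm38 (mm10). The pseudogenes were *Ftl2-ps* (chr4:125504288-125504839, plus strand), *Gm13841* (chr5:115801677-115802159, minus strand), *Gm8210* (chr1:43189156-43189638, plus strand), *Gm14165* (chr2:152353615-152354566, plus strand) and *Tma7-ps* (chr1:171711088-171711282, plus strand), each a single exon. The protein-coding genes were *Ftl1* (chr7:45457944-45459884, minus strand), *Mid1* (chrX:169685199-170005736, plus strand), *Amy2a3* (chr3:113312455-113324052, minus strand), *Htatip2* (chr7:49759115-49773975, plus strand) and *BC147527* (chr13:120300392-120308779, plus strand). None lay on chromosome 12, which carries the heavy chain locus and both enhancers. *Ftl1* and *Htatip2* were 4.30 Mb apart on chromosome 7, and *Gm8210* and *Tma7-ps* were 129 Mb apart on chromosome 1.

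Of the 10 genes, 7 were lower and 3 were higher than *wt* in all 4 comparisons of a mutant library with the *wt* library of its culture state, and all 10 were past 2-fold in each. Among 14377 non-immunoglobulin genes that passed the filter, 0.257% were at least 2-fold lower and 0.459% at least 2-fold higher in all 4, or 37 and 66 genes. The same direction in all 4, without a fold limit, was found for 8.25% of these genes as higher and 6.73% as lower. In single comparisons, 5.62%, 3.95%, 3.4% and 10.7% of the 14600 genes were at least 2-fold lower and 12.6%, 5.38%, 9.12% and 12% at least 2-fold higher, in the order resting Eμ-deficient, resting 3′RR-deficient and then the same after LPS. The rule fixed the direction, so nothing is read from these counts. The comparisons of a culture state share a *wt* library, and a *wt* value that is high or low enters both of them.

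The sequences of 2 parent genes are printed beside those of their pseudogenes because a read can be assigned to one or the other only by the bases that differ. They were read from the GENCODE M21 transcripts of GRCm38, which is the mm10 build, and not from the animals studied. Capitals mark the bases at which parent and pseudogene differ, and positions count from the first base of the coding stretch.

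*Ftl1*, the ferritin light chain, and *Ftl2-ps* share a coding stretch of 552 bases with 7 differences.

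*Rpl29*, a protein of the large ribosomal subunit, differs from *Gm13841* at 3 of 483 bases, C72A, C300T and T423C. *Gm8210* is identical to *Gm13841* over its whole length although it lies on another chromosome, so that reads cannot be assigned to one of them by their bases. The stretches shown are bases 61 to 120 and 281 to 483, at chr5:115802040-115802099 and chr5:115801677-115801879 for *Gm13841*.
Rpl29, bases 61 to 120: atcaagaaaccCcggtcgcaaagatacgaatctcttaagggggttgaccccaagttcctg
Gm13841 and Gm8210, bases 61 to 120: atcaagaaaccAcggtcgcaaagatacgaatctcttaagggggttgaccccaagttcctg
Rpl29, bases 281 to 483: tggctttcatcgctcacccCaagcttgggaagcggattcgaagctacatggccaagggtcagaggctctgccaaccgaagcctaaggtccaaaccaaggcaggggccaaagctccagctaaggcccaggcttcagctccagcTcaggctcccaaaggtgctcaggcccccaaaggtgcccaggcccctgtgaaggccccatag
Gm13841 and Gm8210, bases 281 to 483: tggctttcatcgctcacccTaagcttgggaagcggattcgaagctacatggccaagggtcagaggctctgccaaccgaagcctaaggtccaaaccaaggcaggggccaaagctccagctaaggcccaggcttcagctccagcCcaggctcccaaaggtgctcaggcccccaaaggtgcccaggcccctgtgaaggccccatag

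*Tma7*, a small protein linked to the translation machinery, differs from *Tma7-ps* at 2 of 195 bases, A123G and C141T. The whole coding stretch is shown.
Tma7: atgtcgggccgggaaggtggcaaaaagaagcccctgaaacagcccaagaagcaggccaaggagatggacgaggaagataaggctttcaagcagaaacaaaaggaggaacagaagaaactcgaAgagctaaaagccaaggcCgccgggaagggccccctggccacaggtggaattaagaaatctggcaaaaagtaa
Tma7-ps: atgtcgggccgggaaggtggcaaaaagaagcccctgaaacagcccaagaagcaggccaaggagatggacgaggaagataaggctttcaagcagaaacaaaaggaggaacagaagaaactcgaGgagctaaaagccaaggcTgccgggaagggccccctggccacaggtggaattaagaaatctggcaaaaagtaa

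The 5 pseudogenes were abundant in both *wt* libraries and nearly absent from all 4 mutant libraries. *Ftl2-ps* had 1197 counts in resting and 1615 in LPS-stimulated *wt* B-cells, 2 and 0 in the Eμ-deficient libraries, and 1 and 0 in the 3′RR-deficient libraries. *Gm13841* had 1742 and 5080 counts in *wt*, 10 and 17 in Eμ-deficient and 9 and 9 in 3′RR-deficient B-cells, resting value first. For these genes the lowest *wt* library lay far above the highest mutant library.

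*Gm8210* had 376 and 646 counts in *wt*, 1 and 0 in Eμ-deficient and 1 and 1 in 3′RR-deficient B-cells, with resting cells again first. *Gm14165*, a copy of *Rplp0*, which encodes a protein of the ribosomal stalk, had 579 and 2163 counts in *wt*, 2 and 5 in Eμ-deficient and 7 and 3 in 3′RR-deficient B-cells. *Tma7-ps* had 177 and 1184 counts in *wt*, 4 and 17 in Eμ-deficient and 4 and 6 in 3′RR-deficient B-cells. The counts of the *wt* and mutant libraries did not overlap for any of the 5. The rule chose genes by this difference, and the share of all genes without overlap was not computed. Nothing is therefore read from the separation, here or for *Ftl1*, *Mid1* and *Htatip2* below.

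**Figure D1:**
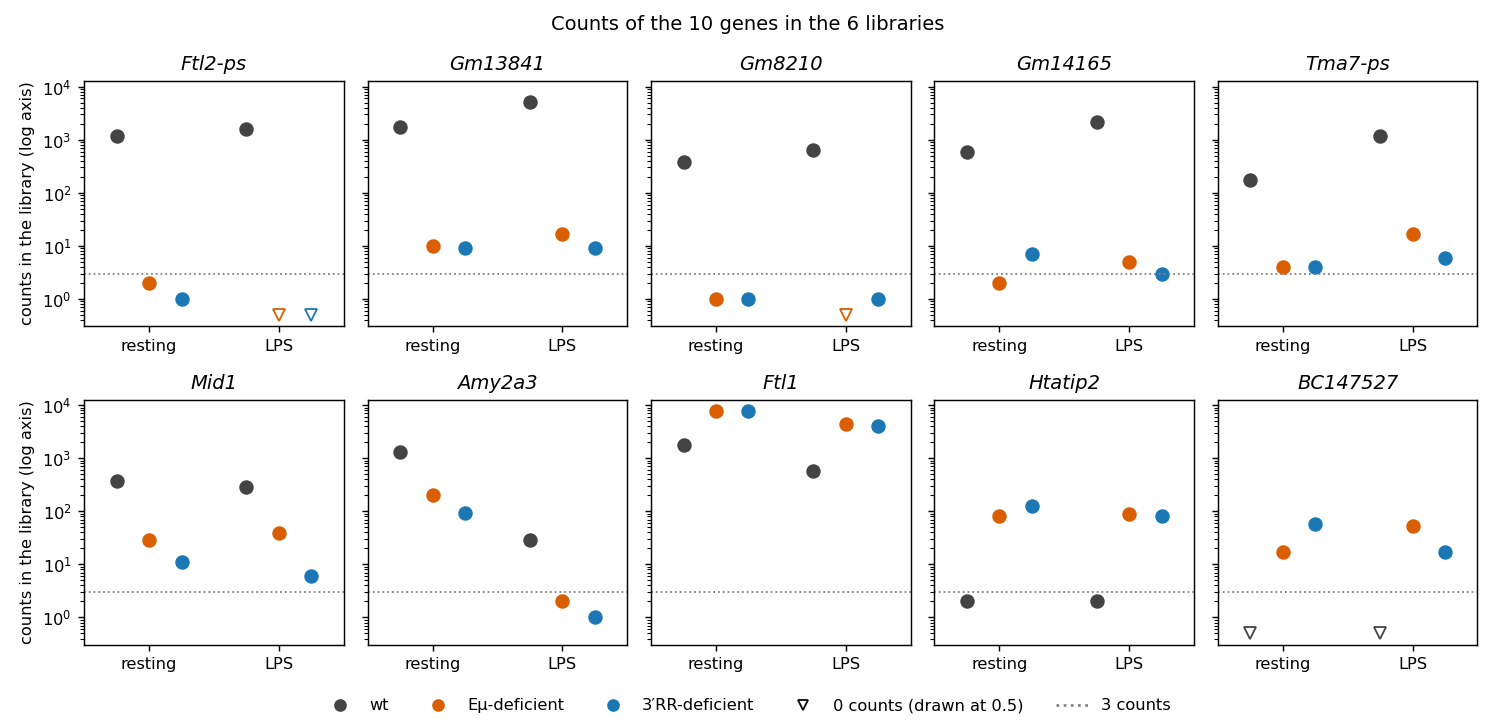
Counts of each gene in the 6 libraries on a log axis, with resting cells on the left and LPS-stimulated cells on the right of each panel and genotypes by color. The 5 pseudogenes in the upper row sit between 177 and 5080 counts in *wt* and at 17 counts or fewer in every mutant library, and *Htatip2* and *BC147527* are at 2 and 0 counts in both *wt* libraries.

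Ratios are given on the log2 scale of CPM (counts divided by the TMM-scaled library size), with a 95% interval that covers counting error only. *Gm13841* was lower than *wt* by a log2 ratio of -6.98 (-8.05 to -6.10) in resting Eμ-deficient and of -7.77 (-8.91 to -6.85) in resting 3′RR-deficient B-cells. After LPS its ratios were -7.25 (-8.03 to -6.57) and -7.91 (-9.04 to -6.98). *Tma7-ps* had the smallest ratios of the pseudogenes, from -5.01 (-6.90 to -3.63) in resting Eμ-deficient to -6.39 (-7.84 to -5.27) in 3′RR-deficient B-cells after LPS.

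Where a mutant library had no counts only a bound can be given, with that library set to 3 counts. *Ftl2-ps* was at least 275-fold lower in LPS-stimulated Eμ-deficient and at least 229-fold lower in LPS-stimulated 3′RR-deficient than in *wt* B-cells. *Gm8210* was at least 110-fold lower in LPS-stimulated Eμ-deficient B-cells, and its ratio in the 3′RR-deficient library, which had 1 count, was -8.10 (-13.4 to -5.62). *Gm14165* ranged from -6.55 (-7.87 to -5.50) in resting 3′RR-deficient to -8.26 (-10.5 to -6.71) in 3′RR-deficient B-cells after LPS.

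**Figure D2:**
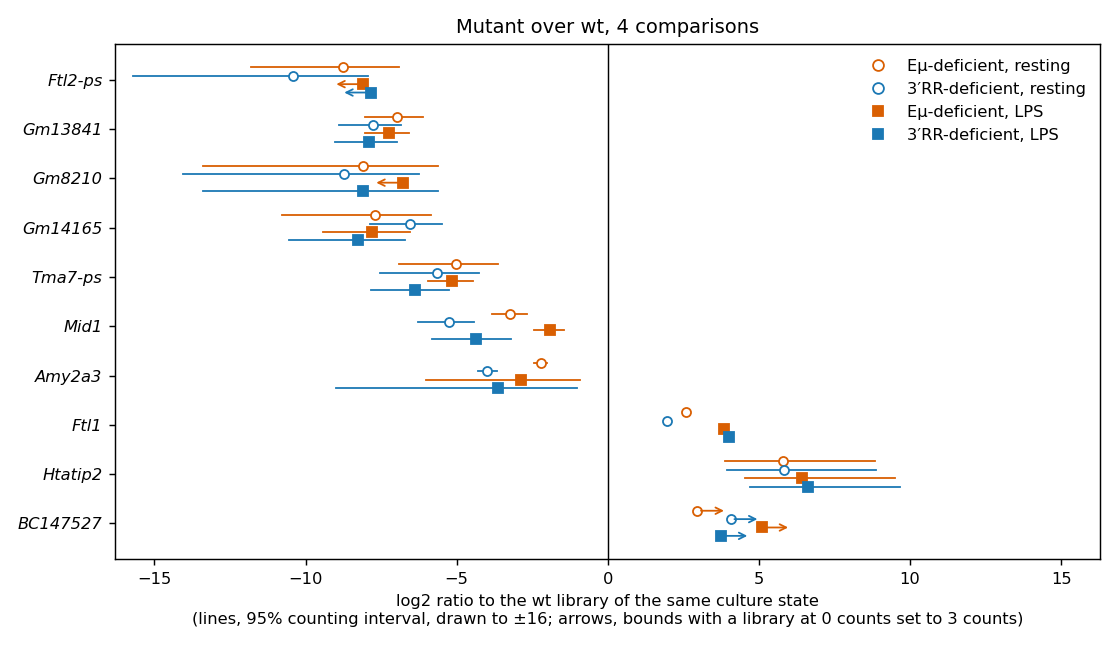
Log2 ratio of each mutant library to the *wt* library of the same culture state for the 10 genes, with open circles for resting and filled squares for LPS-stimulated cells. Lines are 95% counting intervals and arrows mark bounds. The 7 genes on the left are lower and the 3 on the right are higher in all 4 comparisons, and *Ftl1*, with the most counts, has the shortest intervals, from 1.97 to 4.03.

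The parent genes of the pseudogenes differed from *wt* the other way, or less. A family was taken as a pseudogene of the 10, or *Amy2a3*, with its near-identical genes. These were at least 95% identical to it over at least 90% of its length. *Ftl1* itself is a member of the 10 genes and was higher in the mutants, with 1776 and 587 counts in *wt*, 7693 and 4341 in Eμ-deficient and 7882 and 4067 in 3′RR-deficient B-cells, resting value first. Its ratios were 2.57 (2.50 to 2.65) and 1.97 (1.90 to 2.05) in resting and 3.86 (3.73 to 3.98) and 4.03 (3.90 to 4.15) in LPS-stimulated Eμ-deficient and 3′RR-deficient B-cells. The *wt* libraries were below every mutant library.

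When *Ftl1* was summed with its 4 near-identical genes in the table, the ratios were 0.47, -0.15, 0.48 and 0.65 in the same order of libraries, resting before LPS. The sums were 7791 and 6210 counts in *wt*, 7825 and 4435 in Eμ-deficient and 7970 and 4145 in 3′RR-deficient B-cells. *Ftl1* took 22.8% of the family's counts in resting and 9.45% in LPS-stimulated *wt* cells, against 97.9% to 98.9% in the mutant libraries. *Gm15590*, a copy on chromosome 17, held 3309 and 1970 counts in *wt* and at most 33 in a mutant library. *Gm10116*, on chromosome 13 and named *Ftl1-ps1* in the later annotation, held 1081 and 1888 in *wt* and 43 to 118 in the mutants. *Gm12164*, on chromosome 11, held 428 and 150 in *wt* and at most 2 in a mutant.

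*Rpl29* likewise held a larger part of its family in the mutants. It had 1041 and 1874 counts in *wt*, 2301 and 3967 in Eμ-deficient and 4120 and 3270 in 3′RR-deficient B-cells, resting before LPS. Alone it was higher in the mutants, with ratios of 1.60 and 1.81 in resting and 2.05 and 2.04 in LPS-stimulated Eμ-deficient and 3′RR-deficient B-cells. Summed with 22 copies, among them *Gm13841* and *Gm8210*, the family's ratios were -0.01, 0.20, 0.08 and 0.19. *Rpl29* held 30.9% and 24.0% of the family's counts in *wt* and 86.1% to 94.5% in the mutants. Not every copy was lower in the mutants, since *Gm5561*, on chromosome 1, had 21 and 38 counts in *wt* but 77 and 158 in Eμ-deficient B-cells.

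*Rplp0* held 77.7% and 79.7% of its family's counts in *wt* and 99.3% to 99.5% in the mutant libraries. Its counts, 14702 and 29264 in *wt*, were far above those of *Gm14165*. Its own ratios were small at -0.10, 0.14 and 0.04, except for 0.93 in 3′RR-deficient B-cells after LPS. The sums of its family gave -0.45, -0.22, -0.28 and 0.60 in the same order. The other copies *Gm8730* and *Gm9625* had 3250 and 379 counts in resting *wt* cells and at most 87 and 18 in a mutant library. For *Tma7* the share was 73.5% and 69.4% in *wt* and 98.5% to 99.4% in the mutants. Its own ratios were 1.01 and 0.68 in resting and 0.08 and -1.07 in LPS-stimulated Eμ-deficient and 3′RR-deficient B-cells. The sums of the *Tma7* family gave 0.58, 0.24, -0.43 and -1.58.

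**Figure D3:**
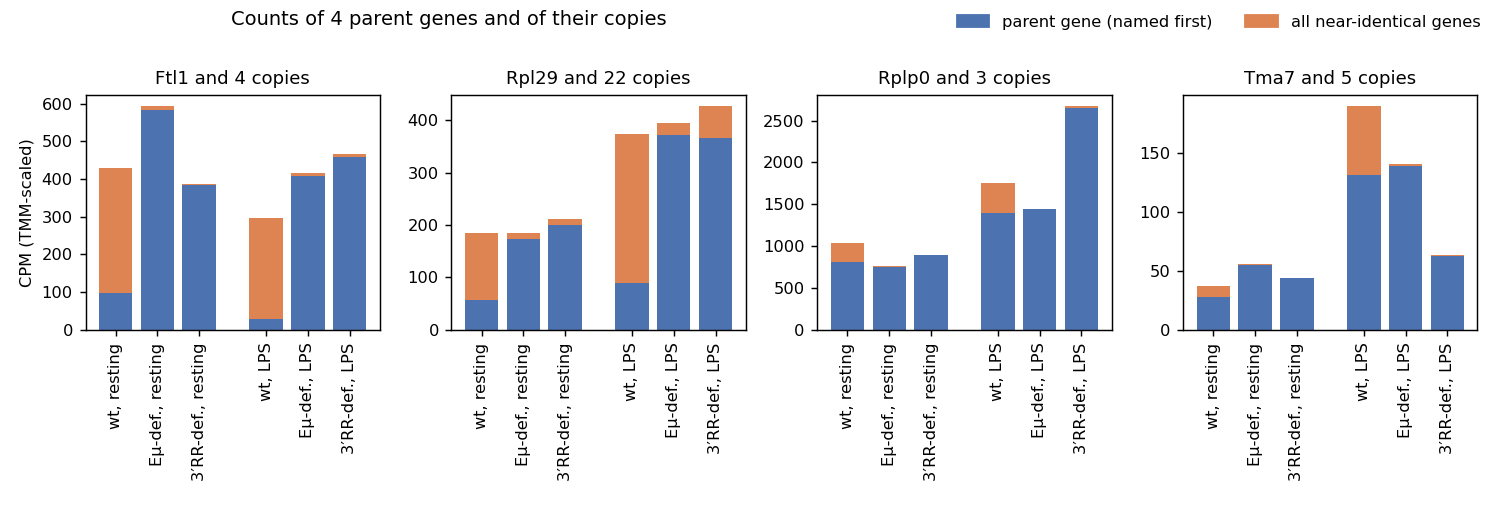
CPM (TMM-scaled) of 4 parent genes and of all their near-identical genes in the 6 libraries, as stacked bars that start at 0. Copies hold 77.2% and 90.5% of the *Ftl1* family in the resting and the LPS-stimulated *wt* library and 2.12% at most in a mutant library.

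Whether the shift from copies to parents lies in the animals' DNA, in their transcripts or in how the reads were placed was not tested. Multi-mapping reads were counted at their primary alignment, so that a family's sum depends less on read placement than any of its genes. *Mir692-2*, a microRNA gene on the same strand that shares 91 exonic bases with *Ftl2-ps*, had 657 and 1363 counts in *wt* and 5 to 19 in the mutants, and the reads of both cannot be told apart.

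Ferritin heavy chain, *Fth1*, which forms the iron storage shell together with the light chain, gives a comparison within the same complex. It had 4106 and 1972 counts in *wt*, 2895 and 1590 in Eμ-deficient and 5594 and 1964 in 3′RR-deficient B-cells. Its ratios were -0.04 and 0.27 in resting and 0.66 and 1.23 in LPS-stimulated cells, all smaller than those of *Ftl1* alone. The sums of the *Ftl1* family gave 0.47, -0.15, 0.48 and 0.65 in the same order, below *Fth1* except in resting Eμ-deficient B-cells. Of 20 genes of iron storage and handling, 3 were higher and 2 were lower in all 4 comparisons, and *Ftl1*, chosen for this pattern, was the 1 gene past 2-fold in all 4. Over all non-immunoglobulin genes 8.25% were higher and 6.73% lower in all 4, and 0.459% were past 2-fold higher, so nothing is read from these small counts. The other higher ones were *Slc11a2*, an iron importer, with ratios between 0.19 and 0.64, and *Hmox1*, heme oxygenase, with ratios between 0.24 and 1.53. *Slc40a1*, the iron exporter ferroportin, which macrophages express, had 173, 862 and 464 counts in resting *wt*, Eμ-deficient and 3′RR-deficient B-cells and at most 4 after LPS. The summed CPM of 8 myeloid markers was 163, 393 and 167 in the resting libraries, and its part in *Slc40a1* was not tested.

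*Mid1* encodes a ubiquitin ligase bound to microtubules that controls the phosphatase PP2A, and in laboratory mice the gene reaches into the region shared by the X and Y chromosomes. It had 375 and 289 counts in *wt*, 29 and 39 in Eμ-deficient and 11 and 6 in 3′RR-deficient B-cells, resting value first. The groups did not overlap, and the Eμ-deficient libraries lay between the other two genotypes. The ratios were -3.23 (-3.83 to -2.69) and -5.27 (-6.28 to -4.41) in resting and -1.92 (-2.44 to -1.43) and -4.36 (-5.82 to -3.22) in LPS-stimulated Eμ-deficient and 3′RR-deficient B-cells.

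A pair of pseudogenes on the Y chromosome followed *Mid1*. *Gm21857*, 96.6% identical to it over 1287 aligned bases, had 417 and 265 counts in *wt*, 6 and 19 in Eμ-deficient and 5 and 1 in 3′RR-deficient B-cells. *Gm21742* had 83 and 86 counts in *wt*, 10 and 4 in Eμ-deficient and 0 in both 3′RR-deficient libraries. Reads of *Gm21857* and *Mid1* can be exchanged, and the identity of *Gm21742* to them was not tested. The Y-linked gene *Ddx3y* had between 314 and 2314 counts in every library and *Xist*, expressed from the inactive X chromosome of females, had between 0 and 48, so RNA of males was present in all 6 pools. Genes that overlap *Mid1* on the other strand had at most 3 counts in a library.

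Of 9 tested genes among the partners of MID1 and the PP2A subunits, 2 were lower in all 4 comparisons, as *Mid1* was, and 0 were past 2-fold in all 4. These shares are 6.73% and 0.257% over all non-immunoglobulin genes, so a list of this size tells little. *Igbp1*, the protein that links MID1 to PP2A, had 469 and 748 counts in *wt* and ratios between -0.34 and 0.11. *Ppp2ca*, the catalytic subunit of PP2A, was one of the 2, with ratios between -0.39 and -0.13.

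*Amy2a3* encodes a pancreatic amylase, a digestive enzyme that acinar cells secrete. It had 1290 counts in resting *wt* B-cells, 202 in Eμ-deficient and 92 in 3′RR-deficient B-cells, and 29, 2 and 1 after LPS. Resting libraries were thus above all LPS-stimulated ones, and *wt* was highest in each state. The ratios to *wt* were -2.21 (-2.436 to -1.9998) and -3.99 (-4.31 to -3.68) in resting cells and -2.89 (-6.00 to -0.90) and -3.63 (-8.98 to -1.03) in LPS-stimulated cells, where the mutant libraries had 2 counts and 1 count.

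Other genes of pancreatic acinar cells moved with it. A list of 20 acinar genes that holds no amylase had a summed CPM of 157, 40.0 and 8.02 in resting *wt*, Eμ-deficient and 3′RR-deficient B-cells and of 4.11, 1.22 and 2.36 after LPS. Of the 20, 18 had more than 3 counts in the resting *wt* library. *Ctrb1*, a chymotrypsinogen, had 367, 53 and 18 counts in the resting libraries, *Pnlip*, pancreatic lipase, had 367, 73 and 16, and *Cpa1*, a carboxypeptidase, had 212, 27 and 6. Their part in the *Amy2a3* difference was not tested. The copies *Amy2a2* and *Amy2a4* are identical to *Amy2a3* over all 3717 transcript bases and *Amy2a5* is 98.4% identical, so that the counts of single amylase genes are uncertain. *Amy2a5* had 692, 79 and 41 counts in the resting libraries. The sum of the 4 genes gave ratios of -2.34 and -4.04 in resting and -3.20 and -0.82 in LPS-stimulated cells, the last with an interval of -1.82 to 0.07.

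**Figure D4:**
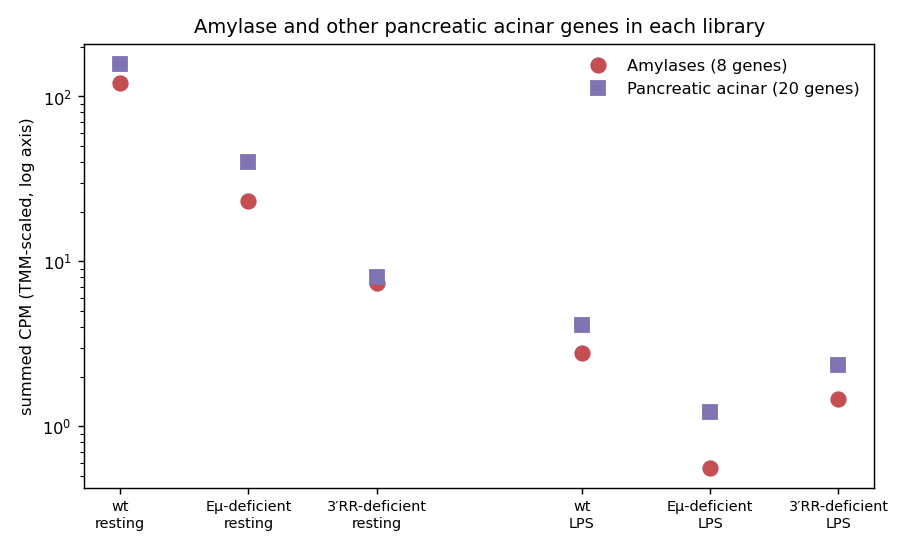
Summed CPM (TMM-scaled, log axis) of 8 amylase genes, *Amy2a3* included, and of 20 other pancreatic acinar genes in each library. In resting cells both sums have the same order of genotypes, from 121 and 157 in *wt* to 7.44 and 8.02 in 3′RR-deficient B-cells, and lie at 4.11 or less after LPS.

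*Htatip2* encodes an oxidoreductase-like protein that was found through its binding to the Tat protein of a virus. Both *wt* libraries had 2 counts, against 80 and 88 in Eμ-deficient and 128 and 83 in 3′RR-deficient B-cells, so the groups did not overlap. The ratios were 5.78 (3.88 to 8.85) and 5.82 (3.94 to 8.88) in resting and 6.43 (4.53 to 9.50) and 6.61 (4.71 to 9.68) in LPS-stimulated Eμ-deficient and 3′RR-deficient B-cells. The level in the 4 mutant libraries varied little, from 6.05 to 9.32 CPM. No other annotated transcript was at least 80% identical to it over at least 50% of its length.

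*BC147527* is a protein-coding gene on chromosome 13 of a cluster of related genes. It had 0 counts in both *wt* libraries, 17 and 52 in Eμ-deficient and 57 and 17 in 3′RR-deficient B-cells. With *wt* set to 3 counts it was at least 7.80-fold and 16.8-fold higher in resting and at least 34.0-fold and 13.3-fold higher in LPS-stimulated Eμ-deficient and 3′RR-deficient B-cells. The mutants had no common order, since the Eμ-deficient library was lower in resting and higher in LPS-stimulated cells. *AF067061*, a relative 87.1% identical over 822 aligned bases, had 0 counts in *wt*, 7 and 1 in Eμ-deficient and 22 and 0 in 3′RR-deficient B-cells. *Gm8953*, the closest copy, had 0 counts in all 6 libraries.

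The LPS comparison was not used to choose the genes, and it was tested with edgeR over all 14600 genes with genotype as an additive term. The 3 genotypes are the only repeats of a culture state. A p-value therefore tests the LPS effect common to them, judged against departures from it and not against the spread between mice. LPS called 19.7% of all genes higher and 21.1% lower, against 3 and 1 of the 10. *Tma7-ps* rose by 2.38 on the log2 scale (SE 0.34, adjusted p = 0.00090), *Gm14165* by 1.42 (SE 0.38, adjusted p = 0.017) and *Gm13841* by 1.25 (SE 0.28, adjusted p = 0.0076). *Amy2a3* fell by 5.76 (SE 0.36, adjusted p = 5.8e-05), and it was lower after LPS in each of the 3 genotypes.

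Most of the counts behind these rises were in the *wt* libraries. In *wt*, LPS over resting was 2.54 (2.31 to 2.78) for *Tma7-ps*, 1.70 (1.57 to 1.83) for *Gm14165* and 1.34 (1.26 to 1.42) for *Gm13841*. In the mutants these genes had 17 counts or fewer, and the intervals were wide. *Tma7-ps* had ratios of 2.4 (0.78 to 4.43) in Eμ-deficient and 1.79 (-0.28 to 4.06) in 3′RR-deficient B-cells, *Gm13841* had 1.07 (-0.14 to 2.36) and 1.21 (-0.30 to 2.72), and *Gm14165* had 1.63 (-0.98 to 5.02) and -0.01 (-2.60 to 2.12). Of the 6 mutant ratios, 5 were above 0 and 1 had an interval above 0. Without the *wt* libraries 0 of the 3 were called higher, and *Gm13841*, the one still tested, had 1.14 (SE 0.63, adjusted p = 0.15). The parents rose as well, *Tma7* by 1.37 (SE 0.33, adjusted p = 0.011), *Rplp0* by 1.10 (SE 0.30, adjusted p = 0.017) and *Rpl29* by 0.87 (SE 0.25, adjusted p = 0.021).

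The other 6 genes were not called for LPS. *Ftl1* had an estimate of -0.68 (SE 0.39, adjusted p = 0.19). Its ratios of LPS over resting were -1.80 in *wt*, -0.52 in Eμ-deficient and 0.25 in 3′RR-deficient B-cells. Without the 3′RR-deficient libraries it was called, at -1.17 (SE 0.43, adjusted p = 0.042). These values are for *Ftl1* alone, which held 22.8% and 9.45% of its family's counts in resting and LPS-stimulated *wt* cells. *Htatip2* had 0.46 (SE 0.34, adjusted p = 0.31), *Gm8210* 0.51 (SE 0.46, adjusted p = 0.40) and *BC147527* 0.68 (SE 0.68, adjusted p = 0.45). *Ftl2-ps* and *Mid1* had estimates of 0.04 (SE 0.46) and 0.05 (SE 0.36), with adjusted p of 0.95 and 0.92.

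Among the pathway genes, LPS changed 8 of 20 iron genes, a share near that of all genes, of which 19.7% rose and 21.1% fell. *Tfrc*, the transferrin receptor that takes up iron, rose by 1.46 (SE 0.36, adjusted p = 0.011), and *Pcbp1*, *Slc39a14* and *Slc39a8* were among the others that rose. *Slc40a1* fell by 7.20 (SE 0.48, adjusted p = 6.7e-05) and *Hmox1* by 2.97 (SE 0.25, adjusted p = 9.6e-05), and *Slc25a37*, which carries iron into mitochondria, fell too. The median over the list was 0.11, beside -0.07 over all genes. *Fth1* had -0.70 (SE 0.28, adjusted p = 0.068). Of 9 tested MID1 and PP2A genes 1, *Mid1ip1*, rose, by 1.63 (SE 0.24, adjusted p = 0.00087). Of 4 genes of the translation machinery *Tma7*, *Tma16* and *Eif1a* rose and *Eif1* fell. The 3 amylases tested, *Amy2a2*, *Amy2a3* and *Amy2a5*, all fell.

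The mutants were also compared with each other, a contrast without *wt* that the choice did not use, although the spread was estimated over all 6 libraries. edgeR called 1.06% of genes higher in Eμ-deficient and 0.24% higher in 3′RR-deficient B-cells, and 0 of the 10. *Ftl2-ps*, *Gm8210* and *Gm14165* had at most 7 counts in a mutant library and passed the filter through *wt*, so a difference between the mutants was not detectable at this depth. *Tma7-ps*, with 4 to 17 counts in a mutant library, also passed the filter only through *wt*. Nothing is read from the absence of these genes among those called. Of the 10, *Mid1* and *Amy2a3* had the smallest adjusted p-values, both over the threshold. *Mid1* was higher in Eμ-deficient B-cells by 2.28 (SE 0.51, adjusted p = 0.080), in 2 of 2 culture states. *Amy2a3* was higher by 1.68 (SE 0.41, adjusted p = 0.11), which rests on resting cells. After LPS it had 2 counts in Eμ-deficient and 1 in 3′RR-deficient B-cells, under the floor of 3. The sum of the 4 near-identical amylase genes was 3 and 13 counts there, in the other direction. *Mid1* was called with the DESeq2 Wald test (adjusted p = 0.013). *Mid1* and *Amy2a3* were both called in a fit to the 4 mutant libraries alone (adjusted p = 0.016 and 0.017), in which 6 of the 10 passed the filter. Both settings called many more of all genes than the main fit, with the numbers given in the last section, so nothing is read from these calls. *Htatip2* had -0.11 (SE 0.36, adjusted p = 0.92) and *Ftl1* 0.15 (SE 0.46, adjusted p = 0.91). Each of the 4 pathway lists had 0 genes called.

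Genes next to the 10 in the genome were described to see whether a difference extended along the chromosome. Up to 5 genes past the filter were taken on each side, 92 in all. Of these, 19 differed from *wt* in the same direction as their neighbor among the 10 in all 4 comparisons, and 3 were past 2-fold in all 4. Beside the 3 higher members 9 of 25 neighbors (36.0%) shared the direction and beside the 7 lower members 10 of 67 (14.9%), against 8.25% higher and 6.73% lower over all non-immunoglobulin genes. The background for 2-fold in all 4 is 0.459% of genes higher and 0.257% lower. Neighbors of 1 gene share a region, so these shares are a description. *Htatip2* had the most, with 6 of its 10 neighbors. *Amy2a5*, 53618 bases from *Amy2a3*, is one of the 3 past 2-fold and a near-identical copy of *Amy2a3*.

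*Nav2*, the nearest gene to the left of *Htatip2* at 149025 bases, had 22 and 4 counts in *wt*, 42 and 9 in Eμ-deficient and 97 and 18 in 3′RR-deficient B-cells. *Prmt3*, 4371 bases to the right of *Htatip2*, had 472 and 703 counts in *wt*, 403 and 375 in Eμ-deficient and 635 and 330 in 3′RR-deficient B-cells. Its ratios on the scaled counts were 0.23 and 0.25 in resting and 0.06 and 0.14 in LPS-stimulated cells, in the direction of *Htatip2* and far smaller. *Tmem86a*, 2704338 bases to the left, had ratios of 2.10, 1.94, 1.97 and 0.82 with 3 to 8 counts in the LPS-stimulated libraries. *Plekha4*, 66446 bases from *Ftl1*, had 11 and 4 counts in *wt*, 24 and 15 in Eμ-deficient and 59 and 7 in 3′RR-deficient B-cells. *D13Ertd608e*, 453822 bases from *BC147527* and its nearest neighbor past the filter, had 1 and 0 counts in *wt*, 72 and 10 in Eμ-deficient and 17 and 0 in 3′RR-deficient B-cells, so that no ratio could be given for LPS-stimulated 3′RR-deficient cells. *Nav2* and *Plekha4* were at low counts in LPS-stimulated libraries.

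Within 1 Mb, 5 of 262 genes were past 2-fold in the direction of their neighbor in all 4 comparisons. The additional 2 lay on the left of *Gm13841*. *Msi1*, 345979 bases away, encodes an RNA-binding protein known from neural stem cells and had 55 and 25 counts in *wt*, 0 and 0 in Eμ-deficient and 2 and 0 in 3′RR-deficient B-cells. *Gm13832*, a noncoding RNA gene 378814 bases away, had 28 and 23 counts in *wt* and 0 in all mutant libraries. Genes nearer to *Gm13841* did not share this, as *Ccdc64* had 40 and 50 counts in *wt* and 24 to 52 in the mutants and *Cit* had 116 and 785 in *wt* and 128 to 599 in the mutants.

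Around the remaining members several nearest neighbors were far from *wt* in a single comparison, but none of those named here was in 1 direction in all 4. Ratios are given for resting Eμ-deficient and 3′RR-deficient and then for LPS-stimulated Eμ-deficient and 3′RR-deficient B-cells. *Trib3*, 9583 bases from *Gm14165*, had -1.96, -0.59, 1.31 and 0.70. *Nck2*, 254941 bases from *Gm8210*, had -0.94, -0.06, 1.14 and 1.39. *Csf3r*, 519711 bases from *Ftl2-ps*, had 0.85 and -0.07 in resting cells and, with 1 count in LPS-stimulated *wt* and 12 in Eμ-deficient cells, 2.97 there.

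*Bax* and *Gys1*, the nearest neighbors of *Ftl1*, had ratios of -0.63, -0.12, 0.11 and 0.36 and of -0.09, 0.10, 0.60 and 0.88. *Cd48*, 5830 bases from *Tma7-ps*, had 0.15, 0.66, -0.55 and -0.11. Of the 7 neighbors of *Mid1* past the filter, 0 shared its direction in all 4 comparisons. *Gm21887*, 3923 bases to its right, had 271 and 350 counts in *wt* and 169 to 344 in the mutants, and *Gm15246*, 317009 bases to its left, had 1.68, 2.14, -0.96 and -1.43 with at most 19 counts in a library. Median ratios over the 92 genes were 0.10, -0.03, -0.01 and 0.12, beside 0.02, 0.02, 0 and 0.02 over all genes tested, with genes at 3 counts or fewer in both libraries set to 0.

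**Figure D5:**
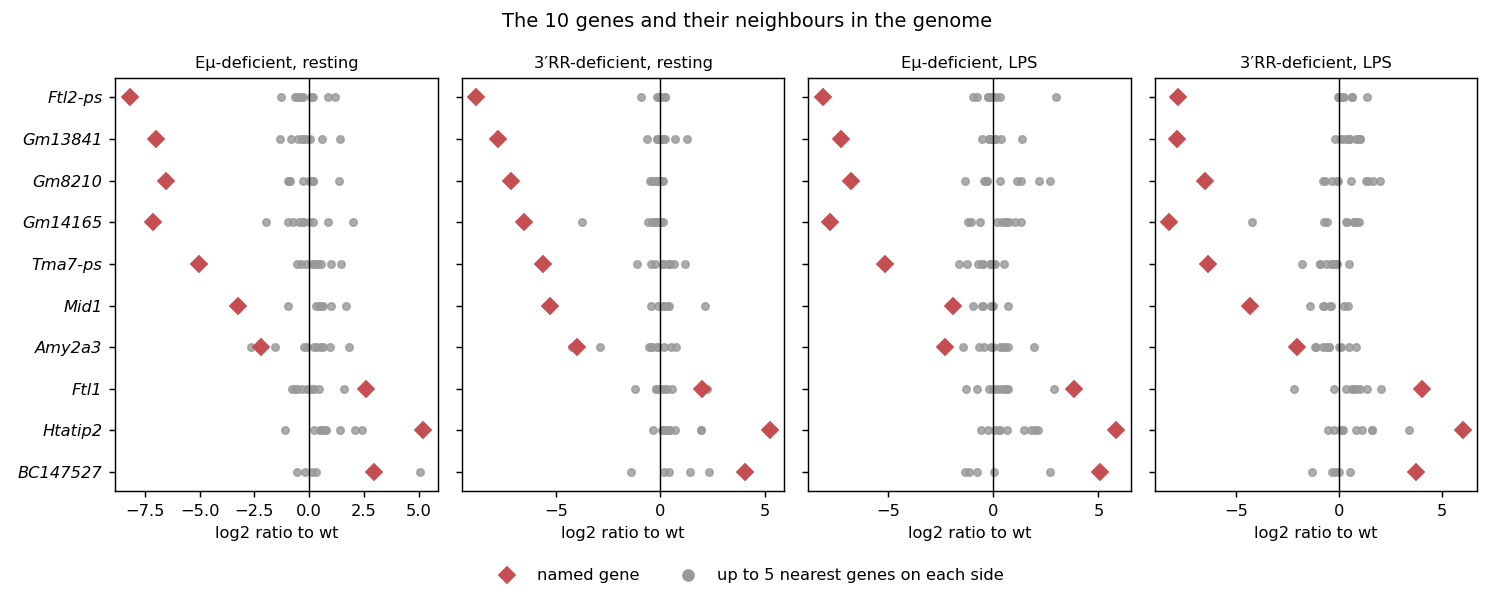
Log2 ratio to *wt* of the 10 genes (diamonds) and of up to 5 nearest genes past the filter on each side (circles), 1 panel per comparison. The diamonds stand apart from most circles in every panel, which the choice of the 10 genes by these ratios fixed in advance. Circles of *Amy2a5* lie next to *Amy2a3* in resting cells, and *D13Ertd608e* lies beyond *BC147527* in resting Eμ-deficient B-cells at 5.05.

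Genes were ranked by their smallest ratio over the 4 comparisons, libraries at or under 3 counts set to 3, to find those most like the 10. The first 4 were *Ftl2-ps*, *Gm13841*, *Gm14165* and *Gm8210*, and *Htatip2*, *Tma7-ps* and *BC147527* followed at ranks 6, 7 and 14. *Amy2a3*, *Ftl1* and *Mid1* came at ranks 29, 31 and 34 of the 103 genes past 2-fold in all 4. Their smallest ratios were -2.04, 1.97 and -1.92.

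The 10 other genes at the top were mostly copies of abundant messenger RNAs. *Mir692-2*, *Gm15590*, *Gm12164*, *Gm9625*, *Gm8730*, *Gm21857* and *Gm10116*, all given above, were 7 of the 10. *Gm27336*, a microRNA gene on chromosome 6, was the only one of them that was higher, with 0 counts in *wt*, 19 and 24 in Eμ-deficient and 32 in both 3′RR-deficient libraries. *RP23-412J12.1*, which was not matched to the annotation, had 26 and 87 counts in *wt* and at most 3 in a mutant. Of the 37 genes at least 2-fold lower in all 4, 14 were processed pseudogenes (37.8%), against 3.76% of the genes tested, and among the 66 higher genes they were 4 (6.06%). The 37 include 7 of the 10 genes described here, so this share is a description.

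The libraries differed in ways that touch these values. Genes received between 9111974 and 21998587 counts per library, the fewest in 3′RR-deficient B-cells after LPS. In that library the ratios to *wt* of 35 spike-in RNAs, which were added to every sample, spread with an SD of 1.27 on the log2 scale, against 0.16 to 0.48 in the other 3 comparisons. In the 3 comparisons without that library, 114 genes were past 2-fold higher and 49 lower. Leaving a comparison out can only add genes, so that the 10 stayed among them was fixed in advance and nothing is read from it. The summed CPM of 10 B-cell markers was between 5482 and 6568 in resting and between 2607 and 3243 in LPS-stimulated libraries. Erythroid markers summed to 20384 CPM in resting Eμ-deficient B-cells, against 3376 in *wt* and 3907 in 3′RR-deficient B-cells, and their part in the values of these genes was not tested. In RNA from a mixed preparation, fewer cells of a type and less RNA per cell cannot be told apart.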

How the data were processed

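Libraries were prepared from ribosomal RNA-depleted total RNA with a stranded kit and sequenced as read pairs of 150 nt. The authors mapped them to mm10 with STAR 2.4.0a, took gene models from Ensembl release 77 and counted them with featureCounts (Subread 1.4.6-p1) per gene name, on 1 strand, with multi-mapping reads counted at the primary alignment. The deposited values are these raw counts, with no normalization. The 92 spike-in names took 4.75% to 7.10% of the counts and entered neither library sizes nor tests. Of 107 pairs of a coding and an antisense gene, 105 had more counts per exonic base on the coding gene.

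Counts were scaled by TMM and tested with edgeR 4.0.16 (R 4.3.3, quasi-likelihood, genotype and culture state as additive terms, Benjamini-Hochberg adjustment over 14600 genes, threshold 0.05) after a check on simulated counts. Ratios between 2 libraries have Clopper-Pearson 95% intervals (scipy 1.17.1) for counting error alone, because amplified read pairs need not be separate molecules. The floor is 3 counts in a library, and where both libraries were at or under it no ratio was taken (set to 0). Of the names, 44203 matched GENCODE M21 (GRCm38) directly and 757 through an older name. Near-identical genes were found with blastn 2.17.0 among its transcripts. Because nothing states that the pools of a genotype come from separate mice, p-values judge an effect only against the spread between these libraries.

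The members, gene lists and tests were chosen with earlier results of these data known. Named genes are the 10 members, their closest copies and overlapping genes, their nearest neighbors past the filter, neighbors past 2-fold in all 4 comparisons, the list genes and the 10 other genes ranked most alike. *Gm5561*, *Gm21742* and the more distant neighbors *Msi1* and *Gm13832* were named after their values were seen. Alternatives were other scalings, filters, folds, tests and left-out genotypes. Family sums and the comparison without 1 library were added after seeing the data. Some gene names and a sequence are not reported here.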

Additional observations from a re-analysis of the deposited data

Results flagged for a closer look

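The LPS ratio of a gene pointed in different directions in different genotypes in 3 cases where the counting intervals did not include 0, and none of these differences was tested, because each genotype has 1 library per culture state. *Mid1* was lower after LPS in *wt* (-0.58, 95% counting interval -0.80 to -0.35) and higher in Eμ-deficient B-cells (0.74, 0.00 to 1.48), a difference of -1.31 on the log2 scale. *Ftl1* was lower after LPS in *wt* (-1.80) and in Eμ-deficient B-cells (-0.52) and higher in 3′RR-deficient B-cells (0.25). Its differences were -2.05 between *wt* and 3′RR-deficient and -0.77 between Eμ-deficient and 3′RR-deficient B-cells. *Ftl1* held 22.8% of its family's counts in resting and 9.45% in LPS-stimulated *wt* cells. The family's sums were 429 and 297 CPM in *wt*, resting before LPS. They were 592 and 415 CPM in Eμ-deficient and 387 and 466 in 3′RR-deficient B-cells. The 3′RR-deficient LPS library is the one with the widest spread of spike-in ratios, an SD of 1.27.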

How the results depend on the processing

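All 10 genes stayed past 2-fold in all 4 comparisons under total-count, DESeq2 and spike-in scaling and with the GC trend removed. They were chosen on these ratios, the smallest of which was -1.92 for *Mid1*, so nothing is read from this. Total-count scaling moved the median ratio of all genes by -0.19 in both resting comparisons, and spike-in scaling moved it by -0.80, -0.24, 0.13 and 0.55 over the 4 comparisons. The labels give no replicate numbers, so genotype served as the block, which paired the resting and the LPS-stimulated library of each genotype.

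The 66 higher genes became 41 with spike-in scaling, 22 on log2(CPM + 1), 39 with at least 50 counts, 169 at 1.5-fold, 9 at 4-fold and 114 without the LPS-stimulated 3′RR-deficient library. The 37 lower genes became 22 with at least 50 counts, 69 at 1.5-fold and 20 at 4-fold. Flanking genes past 2-fold were 3, and 5 within 1 Mb. For Eμ-deficient against 3′RR-deficient B-cells, the 155 higher and 35 lower genes became 558 and 223 with no filter, 281 and 85 with DESeq2 and 919 and 860 in the fit to 4 libraries, and members called higher went from 0 to 2, 1 and 2. Without the genotype block 0 members were called higher with LPS, although the estimates were 2.53 (SE 1.77) for *Tma7-ps*, 1.70 (SE 2.10) for *Gm14165* and 1.34 (SE 2.18) for *Gm13841*. Leaving out a genotype gave 2115 to 3426 genes and 0 to 3 members higher, and 1845 to 3229 genes and 1 to 2 members lower.

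The LPS estimate turned negative for *Mid1* with total-count scaling (-0.069) and without the block (-0.33), and ranged from -0.20 to 0.61 when a genotype was left out. It did so for *Ftl2-ps* with total-count scaling (-0.20) and DESeq2 (-0.041). For *BC147527* it ranged from -0.46 to 1.86 when a genotype was left out. None of these was called. Summing near-identical genes, added after seeing the data, turned the direction for *Ftl1* in resting 3′RR-deficient B-cells (-0.15), for *Ftl2-ps* in Eμ-deficient cells at rest (0.47) and after LPS (0.48) and in 3′RR-deficient cells after LPS (0.65), for *Gm13841* and *Gm8210* in 3′RR-deficient cells at rest (0.20) and after LPS (0.19) and in Eμ-deficient cells after LPS (0.084), for *Gm14165* in 3′RR-deficient cells after LPS (0.60) and for *Tma7-ps* in resting Eμ-deficient (0.58) and 3′RR-deficient cells (0.24). The cause was not tested.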
